A study of Homo sapiens with 4 samples.

Results

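The mitochondrial ribosomal protein genes were described in RNA-seq libraries of untreated HaCaT cells. The members were all protein-coding rows whose symbol is MRPL or MRPS followed by a number and at most 1 letter. The rule used names only and no measured value. It found 78 genes among the 44591 gene rows of the files, 19233 of them protein-coding. MRPL symbols, named for the large subunit, numbered 49, and MRPS symbols, named for the small subunit, numbered 29. HaCaT is a spontaneously immortalized line of human epidermal keratinocytes, grown here without treatment in medium with 12% serum per the labels, where the study's methods give a lower percentage. There were 4 replicates of this 1 condition and no comparison group, so the comparisons below are between genes within a library and between libraries. The study calls the libraries biological repeats. The labels do not say how the cultures were separated, so every SD measures only the spread between these 4 libraries. In bulk RNA, fewer cells of a type and less RNA per cell cannot be told apart.

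Mitochondria keep their own ribosomes, which translate the few membrane subunits of the respiratory chain and ATP synthase that mitochondrial DNA encodes. The rRNA of these ribosomes comes from mitochondrial DNA, while every one of their proteins is encoded in the nucleus, made in the cytosol and imported. The small subunit binds and decodes the mRNA, and the large subunit joins amino acids and holds the exit tunnel next to the inner membrane.

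The total count was 73082279 in replicate 1 and between 17056035 and 19745170 in replicates 2 to 4. Protein-coding rows took 76.1% of the counts of replicate 1 and 95.3% to 96.4% in the other libraries. For this reason levels are given as TPM, a transcript measure in which counts are divided by gene length and scaled to the same total over the protein-coding rows of each library. Keratinocyte markers, KRT5 and KRT14 among them, summed to between 10799 and 15140 TPM over 6 genes. Marker lists of fibroblasts, melanocytes, immune cells and endothelial cells, with 3 to 5 genes each, summed to between 0.859 and 44.0 TPM in any library. Of these, 1 melanocyte and 1 endothelial marker had no count in any library.

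Part of the members' promoters held the same short sequence elements, and the windows below show them in the genes with the highest levels that hold each one. Promoters were taken from RefSeq on GRCh38.p14, from 250 bases before to 50 bases after the annotated start, and 69 of the 78 members had one. MRPL2, MRPL10, MRPL13, MRPL15, MRPL21, MRPL23, MRPL35, MRPS28 and MRPS36 had none. Motifs were searched on both strands as exact letters: AAGATGGC, the type bound by YY1, CCGGAAGT, the type bound by ETS factors, and CGCATGCG, the core of the NRF-1 element, which reads alike on both strands. YY1 and the ETS factor GABP (also called NRF-2) are known as regulators of nuclear genes for mitochondrial proteins, as is NRF-1.

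The YY1-type letters were in 20 of 69 member promoters (28.99%), against 5.55% of 9511 promoters of protein-coding genes with a mean TPM above 1 and 3.03% of all 27305 promoters of this length. The share was 28.6% among the 42 large subunit promoters and 29.6% among the 27 small subunit promoters. In the windows the match is in capitals, the gene strand is shown, and every run is written 5′ to 3′.
MRPS24, chr7:43869480-43869509, minus strand: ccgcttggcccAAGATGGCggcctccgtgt
MRPL51, chr12:6493223-6493252, minus strand: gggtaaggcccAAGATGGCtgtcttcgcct
MRPL20, chr1:1407260-1407289, minus strand: ccgacccgggcAAGATGGCagcggcgctgc
MRPS18B, chr6:30617852-30617881, plus strand: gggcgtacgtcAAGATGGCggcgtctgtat
MRPL52, chr14:22829812-22829841, plus strand: aacccagattcAAGATGGCgacttcctgct
MRPL32, chr7:42932143-42932172, plus strand: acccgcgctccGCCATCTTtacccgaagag
In MRPS24, MRPL51, MRPL20 and MRPS18B the first letter of the match stood 20, 22, 16 and 24 bases into the transcript. The 20 promoters held 21 matches, of which 15 (71.4%) lay after the start on the gene's own strand, against 56.6% of the 553 matches in the expressed genes. In this orientation the element contains an ATG. In 12 of the 15 members concerned that ATG was a start codon annotated in GENCODE release 29, and in 71.6% of the 313 expressed genes with such a match. The 12 were MRPL22, MRPL38, MRPL45, MRPL46, MRPL50, MRPS7, MRPS10, MRPS18A, MRPS18B, MRPS24, MRPS27 and MRPS30, so in these genes the YY1-type letters and the start of translation coincide. A match of letters is a description of the promoter and no measurement of binding.

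The ETS-type letters were in 11 member promoters (15.9%), against 9.18% of the expressed genes and 4.44% of all promoters. Of the 11, 9 belonged to the large subunit (21.4% of its promoters) and 2 to the small subunit (7.41%).
MRPS34, chr16:1773136-1773165, minus strand: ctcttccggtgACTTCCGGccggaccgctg
MRPL51, chr12:6493364-6493393, minus strand: ggcgctccaaaACTTCCGGcaggcggaccg
MRPL3, chr3:131502985-131503014, minus strand: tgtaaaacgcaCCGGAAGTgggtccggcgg
The NRF-1 core was in 3 promoters (4.35%), those of MRPL17, MRPS18C and MRPL22, close to the 3.91% of the expressed genes.
MRPL17, chr11:6683364-6683393, minus strand: ccgagctaaggCGCATGCGttccctgaaat
MRPS18C, chr4:83455912-83455941, plus strand: gaaaggtgctgCGCATGCGtattgaaaaac
MRPL22, chr5:154941039-154941068, plus strand: ccagagtattgCGCATGCGtgctgtccaga
At least 1 of the 3 motifs was in 40.6% of the member promoters, and 6 members held 2 kinds or more. The share was 17.2% in the expressed genes. Members with the YY1-type letters had a median level of 112 TPM (20 genes, from 21.8 to 381), and the other 49 had 92.1 TPM (from 13.9 to 310), so the levels of these 2 sets of genes overlapped over most of their range.

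All 78 members were expressed in HaCaT cells. Each had a mean above 1 TPM and at least 130 counts in every library, and single values ranged from 12.3 to 607 TPM. Among the 12165 protein-coding genes with a mean TPM above 1, the members stood at a median percentile of 84.9, from 34.4 for MRPS25 to 97.1 for MRPS24. The median of those genes was 24.5 TPM, and 74 of 78 members lay above it. Together the members made up 0.791%, 0.827%, 1.09% and 0.704% of the protein-coding TPM in replicates 1 to 4. Replicate 3 was highest and replicate 4 lowest.

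**Figure D1:**
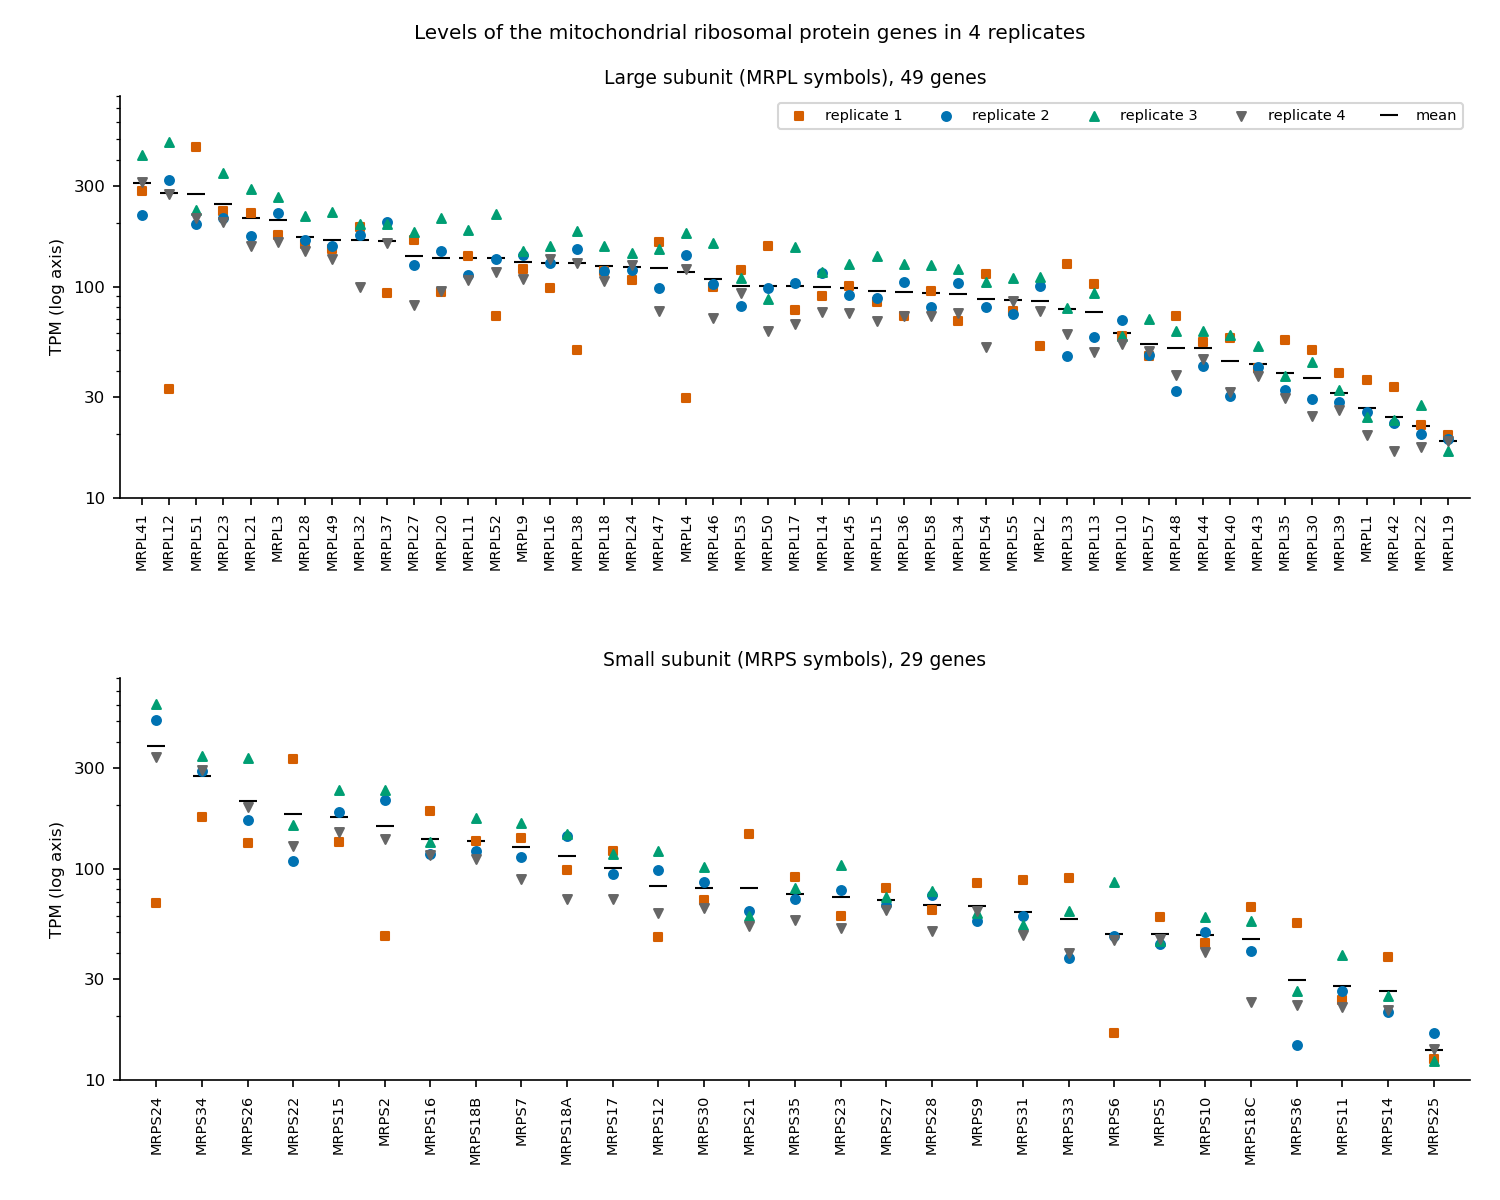
TPM (log axis) of each mitochondrial ribosomal protein gene in the 4 replicates, ordered by the mean (black bar), with the large subunit above and the small subunit below. In the small subunit the lowest gene, MRPS25 (mean 13.9 TPM), lies apart from the next, MRPS14 (mean 26.5 TPM). Replicate 1 (orange squares) falls far below the other libraries in MRPL12, MRPS24, MRPL4, MRPS2 and MRPS6.

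The 2 subunits had similar levels per gene. The genes of the large subunit summed to 5185, 5240, 7135 and 4530 TPM in replicates 1 to 4, on average 5523 ± 1122 (SD, n = 4). The genes of the small subunit summed to 2724, 3028, 3810 and 2506 TPM, on average 3017 ± 570 (SD, n = 4). In both subunits replicate 3 was highest and replicate 4 lowest. The ratio of the sums was 1.83 ± 0.077 (SD, n = 4) and stayed between 1.73 and 1.90 in every library. Most of this ratio is the number of genes: per gene, the mean level of the large subunit was 1.08 ± 0.045 times that of the small subunit (SD, n = 4).

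The median gene told the same direction with more scatter. It stood at 93.5, 102, 129 and 75.7 TPM in the large subunit and at 81.2, 75.3, 86.5 and 62.0 TPM in the small subunit. The large subunit was higher in 4 of 4 libraries, by 0.20, 0.44, 0.57 and 0.28 on the log2(TPM + 1) scale, a mean difference of 0.37 ± 0.16 (SD, n = 4). The difference depended on the correction for length: on CPM (counts without division by length) it was 0.05 ± 0.11 (SD, n = 4). The median length was 1327 bases in the large and 1415 bases in the small subunit. Structures of the human mitochondrial ribosome place MRPS30 and MRPS18A in the large subunit in spite of their symbols. The subunit symbols were kept here, and moving both genes left the sums and the median difference within 1 SD of the values above.

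**Figure D2:**
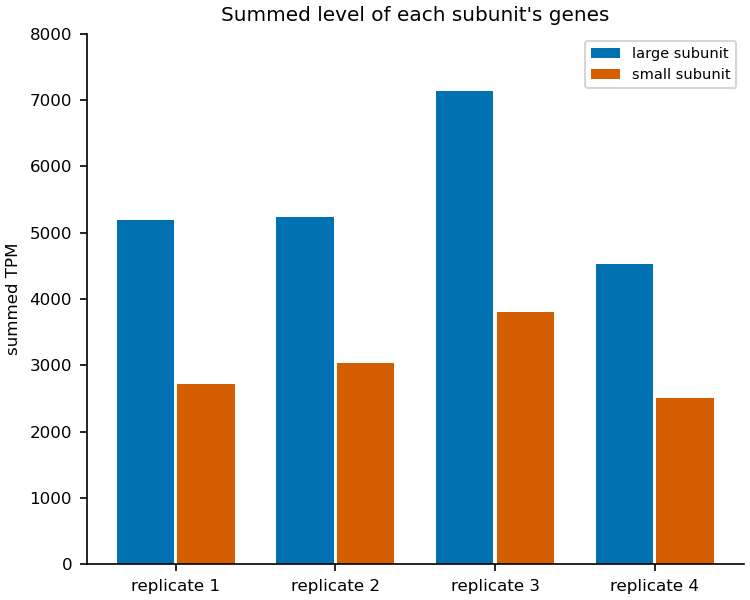
Summed TPM of the 49 large subunit genes (blue) and the 29 small subunit genes (orange) in each replicate. Both bars are tallest in replicate 3 and lowest in replicate 4, and their ratio stays between 1.73 and 1.90.

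In the large subunit the highest gene was MRPL41, a protein that bacterial ribosomes lack. Its levels were 285, 219, 422 and 313 TPM in replicates 1 to 4 (chr9:140446309-140447007 on the plus strand, in the hg19 positions of the files). MRPL12, the counterpart of the bacterial stalk protein that recruits translation factors, followed with 32.6, 319, 485 and 274 TPM (chr17:79670400-79674556, plus strand). It ranked from 2 to 4 among the 78 members in replicates 2 to 4 and 72 in replicate 1. MRPL51 had 460, 198, 232 and 212 TPM and was the highest of all members in replicate 1. MRPL23, a protein of the exit tunnel, had 228, 212, 345 and 202 TPM, and MRPL21 had 223, 174, 290 and 155 TPM. The libraries of these last 2 genes stood in the same order, with replicate 3 above replicates 1, 2 and 4.

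The lowest genes of the large subunit lay around the median of the expressed genes. MRPL19 had 19.8, 19.0, 16.6 and 18.5 TPM in replicates 1 to 4, the smallest relative spread of the genes named here. MRPL22, which lines the exit tunnel, had 22.1, 19.96, 27.6 and 17.4 TPM. MRPL42 had 33.4, 22.5, 23.4 and 16.7 TPM. MRPL1, the protein of the movable stalk at which spent tRNA leaves, had 36.2, 25.5, 24.2 and 19.9 TPM, and MRPL39 had 38.9, 28.3, 32.4 and 26.0 TPM. In the latter 3 genes replicate 1 was highest and replicate 4 lowest.

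In the small subunit MRPS24 was the highest gene and the highest of all 78. It is the counterpart of a bacterial protein at the site where mRNA enters the ribosome. Its levels were 68.6, 509, 607 and 340 TPM in replicates 1 to 4 (chr7:43906157-43909145, minus strand), which put it first in replicates 2, 3 and 4 and at rank 49 in replicate 1. MRPS34, a gene mutated in Leigh syndrome, had 177, 291, 341 and 294 TPM. MRPS26 had 132, 170, 336 and 198 TPM, again with replicate 1 lowest and replicate 3 highest. MRPS22, mutated in inherited mitochondrial disease, stood the other way, with 332 TPM in replicate 1 and 109, 162 and 128 TPM in replicates 2 to 4. MRPS15, an rRNA-binding protein, had 134, 185, 236 and 150 TPM.

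With the lengths in the files MRPS25 was the lowest member of all, with 12.6, 16.7, 12.3 and 14.05 TPM (chr3:15083758-15106844, minus strand). MRPS14 had 38.4, 21.0, 25.1 and 21.5 TPM, and MRPS11 had 24.0, 26.5, 39.0 and 22.2 TPM. MRPS36, since reassigned to the oxoglutarate dehydrogenase complex of the citric acid cycle and kept here by its symbol, had 55.7, 14.7, 26.5 and 22.6 TPM. It had the lowest count of any member, 130 in replicate 2. MRPS18C had 66.3, 41.0, 56.6 and 23.4 TPM. The mean of the highest member was 27.4 times that of the lowest, and 71.2 times with the GENCODE lengths described next, under which MRPL42 was lowest. In the order of mean levels, 74 of the 77 pairs of neighbours differed by less than the SD of their difference over replicates. The order of neighbours is therefore not settled, and pairs further apart were not compared in this way. MRPS24, the highest by the mean, ranked 49 in replicate 1, and MRPL12 ranked 72 there.

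Short members tended to be high. Across the 78 genes the Spearman correlation of mean TPM with gene length was -0.47, and it was -0.25 across the 12165 expressed protein-coding genes. These are descriptions across genes of the same libraries, and TPM itself contains the length. The longest member, MRPL19 with 7827 bases, was next to last, and MRPS25, the last, was given 5455 bases. With the longest protein-coding transcript of GENCODE release 29 as the length, 3479 bases for MRPL19, its mean rose from 18.5 to 45.2 TPM, and that of MRPL41 fell from 310 to 161 TPM with 1262 in place of 604 bases. MRPL42 fell from 24.0 to 5.45 TPM and MRPS33 from 57.9 to 12.2 TPM, which put them at ranks 78 and 77, with MRPS25 at rank 76. The order under both lengths had a Spearman correlation of 0.85, with 6 of the 10 highest and 7 of the 10 lowest members in common.

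The levels of the members lay closer together than those of expressed genes at large. The SD of log2(TPM + 1) over the 78 members was 0.96 in replicate 1 and 1.07, 1.13 and 1.04 in the others, on average 1.05 ± 0.07 (SD, n = 4). Over all expressed protein-coding genes it was between 1.97 and 2.16 in every library. Complex I subunits, 38 genes for the entry point of electrons into the respiratory chain, had SDs of 1.14, 1.19, 1.26 and 1.14. Cytosolic ribosomal proteins, 77 genes, had 1.64, 1.15, 1.14 and 1.14. The members had the lowest SD of the 3 sets in each library, by the least in replicate 3, where the members had 1.13 and the cytosolic set 1.14. The 17 mitochondrial aminoacyl-tRNA synthetases lay closer together still in replicates 2 to 4, with SDs of 0.93, 0.89 and 1.001, and wider in replicate 1, with 1.06. These comparisons hold for the lengths in the files. With GENCODE lengths the SD over members was 1.15 on average, and the other sets were not recomputed.

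**Figure D3:**
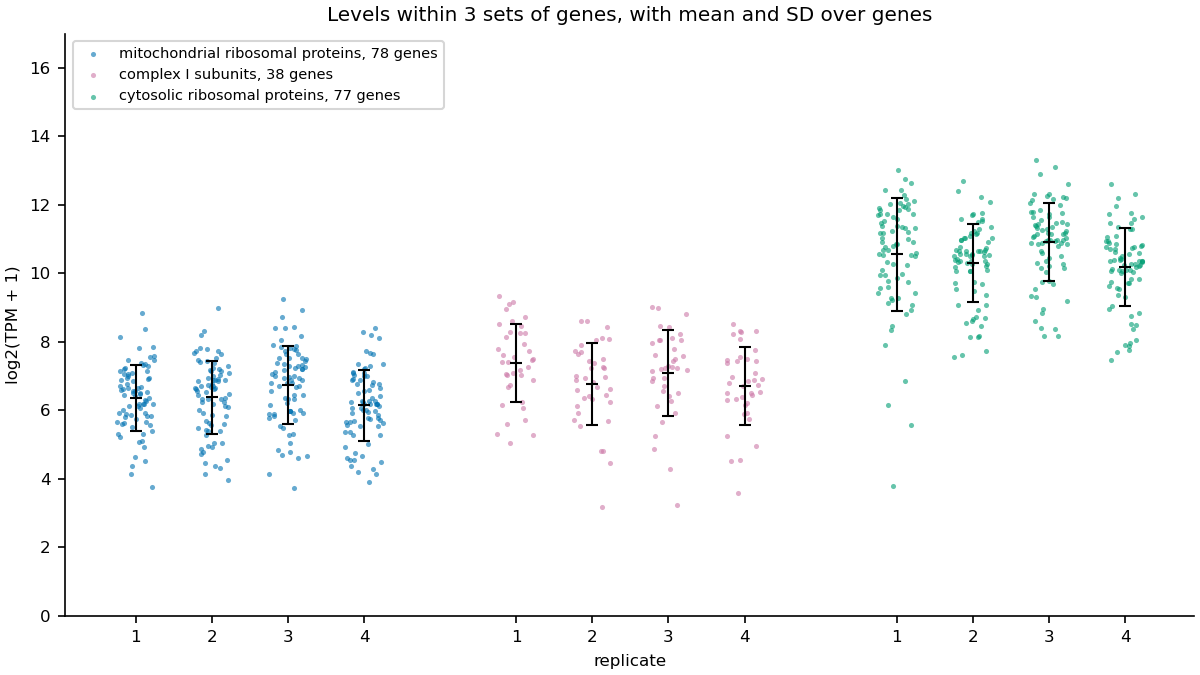
log2(TPM + 1) of single genes (points) in each replicate for mitochondrial ribosomal proteins, complex I subunits and cytosolic ribosomal proteins, with the mean and SD over genes in black. The mitochondrial set lies lowest of the 3, and 1 replicate of the cytosolic set, replicate 1, has a wider SD (1.64) than the other 3.

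The cytosolic ribosome was far more abundant at the RNA level. Its 77 genes summed to between 117453 and 194721 TPM, 11.7% to 19.5% of the protein-coding total, and their median gene stood between 1284 and 2155 TPM. The median gene of complex I stood at 173, 120, 150 and 109 TPM in replicates 1 to 4, and the median mitochondrial ribosomal protein gene at 87.3, 96.3, 119 and 71.97 TPM. By the median gene, the mitochondrial ribosome set was lower than complex I in 4 of 4 libraries. The sums depend on the number of genes, 78 members against 38 for complex I. In replicates 2 to 4 the members summed to 8267, 10944 and 7036 TPM, and complex I to 5427, 6862 and 5130 TPM. In replicate 1 the sums were 7909 TPM for the members and 8327 TPM for complex I.

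The MRPS18 genes are 3 human homologs of 1 bacterial protein, and their products occupy different places: MRPS18B and MRPS18C in the small subunit, MRPS18A in the large. MRPS18B had 136, 122, 175 and 112 TPM in replicates 1 to 4, MRPS18A had 98.9, 143, 146 and 72.2 TPM, and MRPS18C had the values given above. MRPS18C was the lowest of the 3 in every library. On the log2(TPM + 1) scale MRPS18B exceeded it by 1.60 ± 0.48 (SD, n = 4; 4 of 4 libraries; exact permutation test that flips the signs of the differences, two-sided, p = 0.12). MRPS18A exceeded it by 1.32 ± 0.53 (SD, n = 4; 4 of 4 libraries; same exact test, p = 0.12). MRPS18B and MRPS18A differed by 0.28 ± 0.37 (SD, n = 4), less than the spread, with MRPS18B higher in 3 of 4 libraries (same exact test, p = 0.25). With 4 replicates this test can give no smaller p than the first. Over the 4 pairs compared, the adjusted values (Benjamini-Hochberg, exact test) were 0.167, 0.167 and 0.25 in the same order. The differences depended on the length used: with GENCODE lengths MRPS18A minus MRPS18C was 2.05 and MRPS18B minus MRPS18A 0.12, and on CPM the latter was 0.64.

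MRPL37 and MRPS30 are homologous proteins that lie in the large subunit. MRPL37 had 93.5, 202, 199 and 161 TPM in replicates 1 to 4 and MRPS30 had 71.4, 87.1, 102 and 65.7 TPM. MRPL37 was higher in 4 of 4 libraries, by 0.96 ± 0.41 on the log2(TPM + 1) scale (SD, n = 4; same exact permutation test, p = 0.12, adjusted 0.167). The difference was smallest in replicate 1, at 0.39.

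Some proteins of the mitochondrial ribosome carry other symbols, and 5 of them were looked up. DAP3, the GTP-binding protein of the small subunit, had 118, 156, 161 and 123 TPM. AURKAIP1 had 166, 157, 297 and 198 TPM and CHCHD1 had 94.2, 109, 124 and 78.4 TPM. PTCD3, a pentatricopeptide protein of the small subunit, was low, with 34.9, 19.3, 18.6 and 19.5 TPM. GADD45GIP1, a large subunit protein at the exit tunnel, had 76.6 TPM in replicate 1 and 242, 527 and 256 TPM in replicates 2 to 4. All 5 lay within the range of the 78 members. MRPL58, a peptidyl-tRNA hydrolase built into the large subunit, had 94.8, 80.4, 126 and 72.5 TPM.

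The rRNA partners were counted in 3 libraries. The small mitochondrial rRNA (RNR1) had 33323, 45589 and 16521 counts in replicates 2 to 4, and the large mitochondrial rRNA (RNR2) had 172417, 196152 and 180759. Both were at 0 in replicate 1, where a count of 0 allows up to 0.041 counts per 1000000. This limit covers counting error only and assumes that both genes were counted in that library. The sources used here do not say whether they were.

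The factors listed here that build and drive the mitochondrial ribosome were all expressed. The median of each list was below that of the ribosomal proteins, while single factors such as NGRN and TUFM stood well above it. The 24 assembly factors, which process and modify rRNA or help to place proteins, had a median of 37.3 TPM, from 6.17 for YBEY to 245 for NGRN, against a median of 94.9 TPM for the members. They summed to 1205 ± 153 TPM (SD, n = 4). ERAL1, the chaperone of the small rRNA, had 45.9, 110, 100 and 91.3 TPM, with replicate 1 below the other libraries. PTCD1, which acts in rRNA maturation, had 0.508 TPM in replicate 1 (68 counts) and 22.7, 25.4 and 18.1 TPM in replicates 2 to 4.

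The 17 translation factors had a median of 35.3 TPM, from 10.8 for GUF1 to 450 for TUFM, the mitochondrial elongation factor Tu that brings aminoacyl-tRNA to the ribosome. TUFM had 330, 498, 510 and 461 TPM in replicates 1 to 4, and its mean was above the mean of every member. Within libraries MRPL51 (460 TPM) and MRPS22 (332 TPM) stood above it in replicate 1. MRPS24 did so in replicates 2 and 3, with 509 and 607 TPM. The 17 mitochondrial aminoacyl-tRNA synthetases, which charge the tRNAs, had a median of 27.0 TPM, from 12.0 for PARS2 to 118 for IARS2. These synthetases summed to 665, 611, 567 and 624 TPM, so they did not share the high value of replicate 3 seen in the members.

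Replicate 1 stood apart from the other libraries. Its Spearman correlation with them over the 78 members was between 0.60 and 0.64, while replicates 2, 3 and 4 correlated at 0.95 to 0.97 with each other. Over the expressed protein-coding genes the values were 0.75 to 0.78 and 0.94 to 0.97. To describe this, replicate 1 was set against the mean of replicates 2 to 4 on the log2(TPM + 1) scale for each gene. With 1 library on a side this has no test. The median over members was -0.06, with 40 of 78 members below 0. Over all expressed genes the median was 0.03, with 5947 of 12165 genes below 0.

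Of the members, 7 were more than 1 below on this scale (8.97%, background 20.1% of the 12165 expressed genes) and 5 were more than 1 above (6.41%, background 17.4%). Both shares were below the background, which also holds many genes at lower levels than the members. No share was computed over genes at the members' levels. The lowest of the members was MRPL12, at -3.38 on the log2 scale. The mean of its other 3 libraries was 11.01 times the 32.6 TPM of replicate 1. MRPS24 followed at -2.76 and MRPL4, a protein of the exit tunnel with 29.7, 142, 179 and 121 TPM, at -2.25. MRPS2, the counterpart of a bacterial small subunit protein, had 48.1, 212, 237 and 138 TPM, a difference of -1.97. MRPS6 had 16.8, 48.3, 86.5 and 45.8 TPM, a difference of -1.73. MRPL38 and MRPL52 stood at -1.60 and -1.06, and MRPL52 at -0.79 without replicate 3. In these 7 genes the value of replicate 1 was below each of the other 3.

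The 5 members above were MRPS36 (1.39), MRPS22 (1.33), MRPS21 (1.30), MRPL51 (1.10) and MRPL33 (1.06). MRPS21 had 146 TPM in replicate 1 and 63.2, 59.9 and 53.9 TPM in the others. MRPL33 had 127, 46.8, 79.0 and 59.6 TPM, and its difference was 0.88 without replicate 2. Leaving out replicate 2, 3 or 4 gave 6 to 9 members more than 1 below and 5 to 8 more than 1 above. The background shares were not recomputed for these counts. The 8 members above came without replicate 3, when MRPL48, MRPS18C and MRPS33 were added. These directions hold for TPM over protein-coding rows. With all rows in the denominator every value of replicate 1 drops, the median over members becomes -1.50 and all 5 turn to between -0.45 and -0.10.

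The position of a member followed the GC content of its transcript. The Spearman correlation of the replicate 1 difference with GC content was -0.64 over the 78 members, and -0.51 over the 12092 expressed genes with a GC value. With gene length it was -0.01 over the members. The 39 members with a GC content of 48.9% or more had a median difference of -0.21, and 29 of them were below 0. The other 39 had a median of 0.42, and 11 were below 0. This split was not made over all expressed genes, so its counts do not set the members apart. MRPL12 (64.6% GC), MRPL4 (64.9%), MRPL38 (64.6%), MRPS2 (61.4%), MRPS24 (58.8%) and MRPL52 (52.3%) are in the GC-rich set, and MRPS6 (48.9%) lies just below the divide. MRPL41, the most GC-rich member at 71.9%, differed by -0.11. Points of this plot are genes of the same 4 libraries. The part of GC content, library depth or RNA selection in these differences was not tested, and they cannot be told apart from other differences between the libraries.

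**Figure D4:**
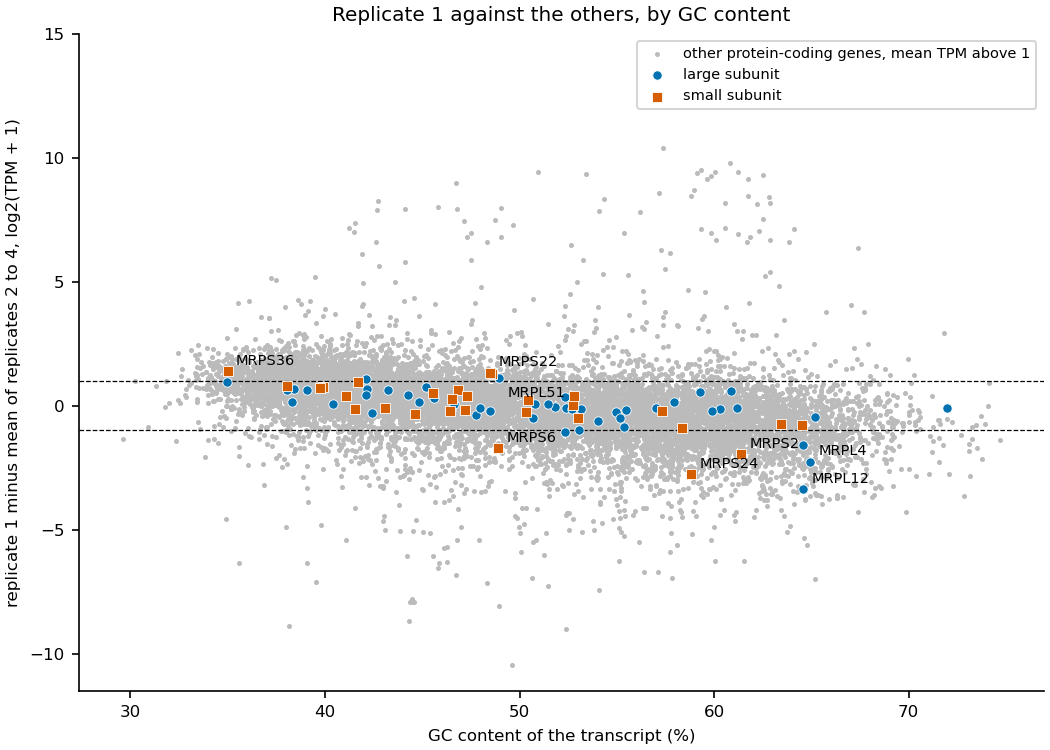
Replicate 1 minus the mean of replicates 2 to 4 on the log2(TPM + 1) scale against the GC content (%) of the transcript, for large subunit genes (blue circles), small subunit genes (orange squares) and other expressed protein-coding genes (grey), with dashed lines at -1 and 1. Members with GC contents above 55% mostly lie below 0, with MRPL12 lowest at -3.38.

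Replicate 3 held the highest value for 48 members, replicate 1 for 27, replicate 2 for 3 and replicate 4 for none. Shares over all expressed genes were not computed for these counts, so they do not set the members apart. Since replicate 1 stood apart, replicate 3 was compared with replicates 2 and 4 alone. In 68 of 78 members (87.2%) its TPM was above both, against a background of 20.1% of the 12165 expressed genes. The count was 44 of 49 in the large subunit and 24 of 29 in the small subunit, 31 of 38 in complex I and 77 of 77 in the cytosolic ribosome. The median difference of replicate 3 from the mean of replicates 2 and 4 was 0.50 on the log2(TPM + 1) scale over the members, 0.67 over the cytosolic ribosomal proteins and -0.30 over all expressed genes.

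The difference was largest in MRPL40 (0.91), MRPL46 (0.90), MRPL17 (0.88) and MRPS26 (0.87). It was below 0 in MRPS25 (-0.30), MRPL19 (-0.17) and MRPL10 (-0.06), the first 2 being among the longest members. Over all expressed genes it fell with gene length, with a Spearman correlation of -0.53, and it did so less over the members, at -0.30. The members are short, with a median of 1349 bases against 3276. Of the 1248 expressed genes no longer than 1349 bases, 51.4% were above both in replicate 3, more than at large and fewer than among the members. How far length or another property of the library shares in this was not tested.

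The widest ranges over replicates 2 to 4 were 1.24 in MRPS18C, 1.202 in MRPL17, 1.16 in MRPL46, 1.15 in MRPL27 and 1.13 in MRPL20 on the log2(TPM + 1) scale. In each of these 5 genes replicate 3 was highest and replicate 4 lowest of the 3. MRPL17 had 105, 154 and 66.4 TPM, MRPL46 had 102, 161 and 71.3 TPM and MRPL27, the counterpart of a bacterial protein at the catalytic centre, had 127, 182 and 81.7 TPM. The median range over members was 0.66, close to the 0.63 of all expressed genes.

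Some members share their position with other genes, which can bear on their counts. In the positions of the files, 26 of 78 members overlapped another gene, 22 on the opposite strand and 7 on the same strand. The share over all expressed genes was not computed, so these counts do not set the members apart. Some of the overlapping genes had few or no counts. MRPS24 lies within the readthrough gene URGCP-MRPS24, which had 9, 1532, 2384 and 1104 counts in replicates 1 to 4, against 1161, 2353, 3799 and 1764 for MRPS24 itself. Both were lowest in replicate 1, although that library had the most counts, and reads of shared exons can be given to either. MRPS6 overlaps SLC5A3, with 2642, 445, 240 and 578 counts against 403, 318, 770 and 338 for MRPS6. Its level is uncertain for the same reason. MRPL12 overlapped no other gene. Without the 7 members with a same-strand overlap, the correlation of the replicate 1 difference with GC content was -0.68 over 71 genes, and 5 genes remained more than 1 below.

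Of 40 pseudogene rows named after a member, 8 had more than 3 counts in any library and 2 reached 10% of the parent's count. These 2 were copies of MRPS31, MRPS31P5 with up to 17.3% and MRPS31P4 with up to 13.8% of its count, so the level of MRPS31 (88.7, 59.6, 54.0 and 48.8 TPM) could be set in part by how shared reads were given out. All 40 rows together had 512, 202, 315 and 204 counts.

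Members often began next to a gene that ran the other way. In 28 of 78 (35.9%) another protein-coding gene started within 1000 bases on the opposite strand, against 16.4% of the 12165 expressed genes. One such pair joined 2 members, MRPL46 and MRPS11 on chromosome 15, whose starts lay 51 bases apart. MRPL46 had 99.3, 102, 161 and 71.3 TPM and MRPS11 had 24.0, 26.5, 39.0 and 22.2 TPM. In both genes replicate 3 was highest and replicate 4 lowest. Among the 78 members replicate 3 was highest in 48 and replicate 4 lowest in 44, so this order does not set the pair apart. In 2 other pairs, picked after their values were seen, the partners stood at different levels. FAU, which encodes a cytosolic ribosomal protein, had 1752, 1645, 2058 and 1147 TPM against 151, 156, 227 and 134 for MRPL49, while HELQ had 8.53, 3.56, 1.59 and 3.65 TPM against 66.3, 41.0, 56.6 and 23.4 for MRPS18C.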

How the data were processed

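RNA was sequenced from 4 libraries of untreated HaCaT cells. Each deposited file held raw counts with gene lengths and positions. Beside them the authors deposited RPKM in replicates 1 and 2 and TPM in replicates 3 and 4. The submitters' processing notes name hg19, HISAT2, HISAT, TopHat2 and Bowtie2. The counting program, annotation and RNA selection are not given in the sources used here. Since the deposited units differ, TPM was recomputed from counts and lengths over protein-coding rows. Differences were taken on log2(TPM + 1), which understates those of low genes. Genes with a mean TPM above 1 are called expressed, and counts of 3 or fewer were at the floor. Total counts were 73082279, 17056035, 19745170 and 19083836.

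The members, gene lists and tests were chosen with earlier results of these data known. Named genes were the 5 highest and 5 lowest per subunit, the 5 with the widest difference of replicate 1, the 5 with the widest range over replicates 2 to 4, and the paralogs. Apart from ribosome subunits with other symbols, the remaining single genes were picked once their values were known. The paralogs alone had a test, the exact sign-flip permutation test. GC content came from the longest protein-coding transcript of GENCODE release 29. Summaries were tested on simulated data. Alternatives were another denominator, pseudocount, length or scaling, the values as deposited, leaving out each library, and leaving out the 7 members that overlap another gene on the same strand. Python 3.11.15, pandas 2.3.3, SciPy 1.17.1 and, for TMM factors, edgeR 4.0.16 were used.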

Additional observations from a re-analysis of the deposited data

Results flagged for a closer look

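In 3 of 86 sets of 4 values examined, 1 library lay far from the other 3 by Dixon's ratio, which is the gap to the nearest library over the whole range and is called above its 95% critical value. Chance flags about 1 in 20 such sets, here 4.3. MRPS21 had 146 TPM in replicate 1 and 53.9 to 63.2 TPM in the others, a ratio of 0.899. MRPL57 had 70.1 TPM in replicate 3 and 47.0 to 49.8 TPM in the others, a ratio of 0.878. MRPL51 had 460 TPM in replicate 1 and 198 to 232 TPM in the others, a ratio of 0.873.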

How the results depend on the processing

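With all rows in the TPM denominator, the summed level became 4175 TPM for the large and 2297 TPM for the small subunit, and the median difference of replicate 1 over members became -1.50. Under that setting the replicate 1 difference changed sign in MRPL51 (-0.42), MRPS22 (-0.19), MRPS36 (-0.10), MRPL33 (-0.45) and MRPS21 (-0.22). Without the length correction, the large minus small median was 0.048 and the SD over members 0.90. With GENCODE lengths, added after seeing the data, that SD was 1.15. No paralog difference changed direction under any alternative run, and every member tested kept a mean above 1 TPM.

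Leaving out each library in turn gave 4985 to 5853 TPM for the large and 2752 to 3187 TPM for the small subunit. It gave 0.31 to 0.43 for the median difference between them and 1.02 to 1.08 for the SD over members. MRPS18B minus MRPS18A ranged from 0.16 to 0.45, MRPS18B minus MRPS18C from 1.39 to 1.79, MRPS18A minus MRPS18C from 1.17 to 1.57, and MRPL37 minus MRPS30 from 0.85 to 1.15. The median difference of replicate 1 ranged from -0.11 to 0.13 and has no value without replicate 1. The count of members higher in replicate 3 than in replicates 2 and 4, a result added after seeing the data, was 68. It rose to 76 or 77 under upper-quartile, TMM and median-of-ratios scaling, and to 76 on CPM. The share over all expressed genes was not recomputed under these settings, so the rise cannot be read as particular to the members. Depth limits no detection call here, since the lowest count was 130.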
